A study of Mus musculus with 16 samples.

Results

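The genes described here build and drive the motile cilium. They were taken by symbol: Foxj1, and all genes listed under a Dnah, Dnaic, Cfap, Rsph, Tekt, Drc, Spef, Spag6, Spag16 or Spag17 symbol. Of the 14504 genes listed, 55 met this rule. The tissue was the dorsal raphe nucleus (DRN), where most serotonin neurons that project to the forebrain lie. They comprised Foxj1, 9 dynein heavy chains, 2 dynein intermediate chains, 3 subunits of the nexin-dynein regulatory complex, 6 radial spoke genes, 4 genes of the central apparatus, 4 tektins and 26 Cfap genes. The annotation holds 71 protein-coding symbols that fit the rule.

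Poly(A) RNA was sequenced from the DRN of adult male C57BL/6 mice in 16 libraries of 6 groups. Control mice (con) received saline (3 libraries) or 2 mg/kg dexamethasone (DEX, 3 libraries), a synthetic glucocorticoid, 6 h before the brain was collected. Mice stressed for 30 days by social defeat were divided by behavioral clustering into a passive (PS) and an active (AS) coping phenotype, and received the same injections (PS, 2 saline and 3 DEX libraries; AS, 3 saline and 2 DEX libraries). The coping phenotypes are classes drawn from behavior of defeated animals and not separate treatments. The DRN was punched from cryosections beside the cerebral aqueduct, so a punch can take a varying amount of its lining. Libraries are named by group, injection and animal number, for example PS_dex_64. They held 38207157 to 62447298 reads in the listed genes.

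Motile cilia beat. Their axoneme is a ring of doublet microtubules around a central pair, bent by outer and inner dynein arms whose action is set by the regulatory complex and the radial spokes. In the brain such cilia stand in tufts on ependymal cells, which line the ventricles and the aqueduct and move cerebrospinal fluid, whereas neurons and astrocytes carry a single immotile primary cilium. Foxj1 is the forkhead transcription factor that switches on the program, together with the RFX factors, which bind X-box sequences in promoters of ciliary genes.

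Promoters were searched for such letters. In the RefSeq windows (GRCm38.p6) from 250 bases before to 50 after the start of a gene, 44 of the 55 members were found, with 50 windows; Foxj1, Cfap54, Cfap65, Cfap73, Cfap97, Cfap157, Cfap299, Dnah3, Rsph1, Rsph4a and Rsph10b were not in the table. The X-box half-site GTTGCC, sought on both strands, stood in the windows of 20 of these 44 genes (45.5%), against 14.1% of 27025 genes in all. The forkhead motif TGTTTAC stood in the windows of 2 of the 44 (4.55%), against 4.05% of all genes. The complete X-box palindrome and the palindromic glucocorticoid response element, also sought on both strands, were found in none of the 44 (0.0851% and 0.0111% of all genes). The windows of Tekt4, the member that DEX changed, of Tekt1, a tektin that followed the other members closely, and of Cfap44, a member with 2 half-sites, are given below from 5′ to 3′ on the strand of the gene, with each half-site in capitals (GTTGCC, or GGCAAC where it lies on the other strand). They are chr17:25471340-25471639 (plus strand), chr11:72361833-72362132 (minus strand) and chr16:44394549-44394848 (plus strand). Tekt1 has a second window without the half-site. The window of Tekt4 surrounds the start that most of its annotated transcripts share or lie near. In the annotation used here, of another release than the study counted with, the gene reaches farther upstream, through 1 longer transcript.
Tekt4: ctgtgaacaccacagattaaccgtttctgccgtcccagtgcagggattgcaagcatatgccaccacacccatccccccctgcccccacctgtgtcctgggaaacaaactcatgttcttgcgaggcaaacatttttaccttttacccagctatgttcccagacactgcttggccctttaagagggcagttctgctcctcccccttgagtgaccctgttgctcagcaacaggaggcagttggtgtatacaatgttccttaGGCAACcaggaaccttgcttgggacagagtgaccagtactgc
Tekt1: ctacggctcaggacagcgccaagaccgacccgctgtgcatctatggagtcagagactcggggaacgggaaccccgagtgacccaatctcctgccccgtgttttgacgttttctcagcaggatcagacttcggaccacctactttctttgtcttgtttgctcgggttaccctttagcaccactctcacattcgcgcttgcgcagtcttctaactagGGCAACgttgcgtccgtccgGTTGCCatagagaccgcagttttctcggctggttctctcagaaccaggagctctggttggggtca
Cfap44: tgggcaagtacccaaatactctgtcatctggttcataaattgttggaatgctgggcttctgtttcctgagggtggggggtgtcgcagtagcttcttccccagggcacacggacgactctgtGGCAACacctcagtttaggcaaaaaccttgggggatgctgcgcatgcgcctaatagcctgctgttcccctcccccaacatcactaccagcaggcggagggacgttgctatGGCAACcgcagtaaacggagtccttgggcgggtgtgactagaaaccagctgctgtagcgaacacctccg

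Most of the 55 genes rose and sank together from library to library, by more than any group differed from another. Their common level, called the cilia gauge here, is the mean over the 55 genes of log2(normalized count + 1) minus the mean of the gene over the 16 libraries. It was lowest in PS_dex_6 (-1.68), followed by con_dex_101 (-1.13), AS_dex_42 (-0.59), PS_sal_68 (-0.56), con_sal_102 (-0.52), con_sal_114 (-0.40) and AS_sal_8 (-0.30). It lay above 0 in con_sal_104 (0.08), con_dex_116 (0.25), AS_sal_40 (0.39), PS_sal_62 (0.43), PS_dex_34 (0.45), con_dex_122 (0.60), AS_sal_14 (0.75) and AS_dex_38 (0.81), and was highest in PS_dex_64 (1.42). The lowest and the highest library, both from passive mice given DEX, thus differed 8.54-fold on the scale of the gauge, which weighs each gene alike. The summed normalized counts of the members were 20556 in PS_dex_6 and 87194 in PS_dex_64. Of the variance of the gauge over the libraries, 94.3% lay within groups. With no group difference 66.7% would be expected there, and the median over all genes was 63.5%.

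Group means of the gauge were close and their spreads overlapped. The mean was -0.28 ± 0.32 (SD, n = 3) in con_sal and -0.09 ± 0.91 (n = 3) in con_dex. It was -0.07 ± 0.70 (n = 2) in PS_sal and 0.07 ± 1.58 (n = 3) in PS_dex, and 0.28 ± 0.54 (n = 3) in AS_sal and 0.11 ± 0.99 (n = 2) in AS_dex. In each DEX group at least 1 library lay below all saline libraries of the same phenotype and at least 1 above them. In bulk tissue, fewer cells of a type and less RNA per cell cannot be told apart, so the gauge does not count ependymal cells.

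**Figure D1:**
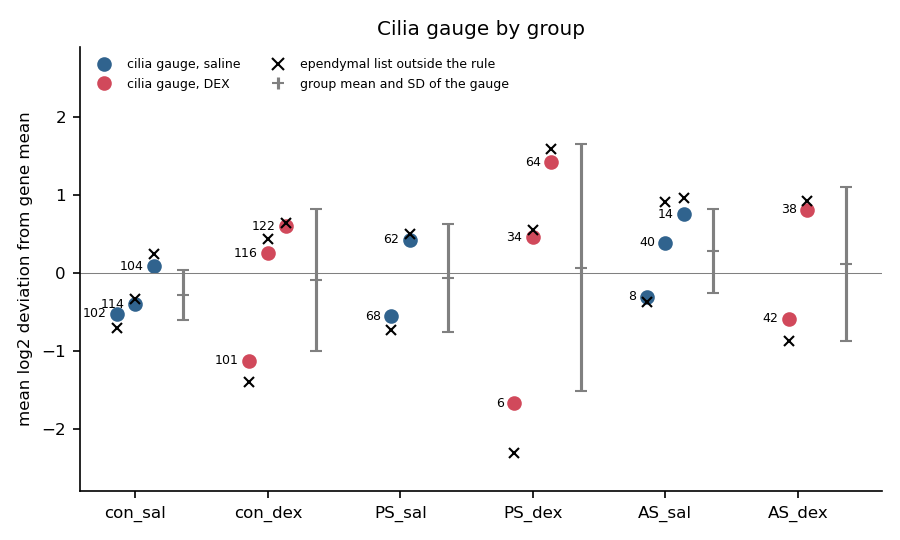
Cilia gauge of each library (filled circles, blue for saline and red for DEX, animal number beside each) with the mean and SD of each group in gray, in log2 units around the mean of 16 libraries. Crosses give the same mean over 45 ependymal genes that are no members; they rise with the circles over a wider range, -2.32 to 1.59 against -1.68 to 1.42, and both reach their extremes within PS_dex.

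The shared variation held for most classes of the axoneme. After centering on the group means, the correlation of a member with the mean of the other 54 over the 16 libraries had a median of 0.967; it was at least 0.9 for 37 members and at least 0.8 for 45. All of these values share libraries and depth and are given as a description. The first principal component of the centered and scaled members held 79.2% of their variance and the second 8.30%. The within-group SD of a member had a median of 1.05 on the log2 scale, against 0.21 over all genes, and 28 of the 55 members (50.9%) were among the 5% of genes with the largest within-group SD.

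Foxj1, the regulator, had 903, 2070.0 and 1072 normalized counts in con_sal (con_sal_102, con_sal_104 and con_sal_114) and 379.9, 1606 and 1931 in con_dex (con_dex_101, con_dex_116 and con_dex_122). It had 2027 and 964 in PS_sal (PS_sal_62 and PS_sal_68) and 241, 1512 and 3451 in PS_dex (PS_dex_6, PS_dex_34 and PS_dex_64). It had 1053, 3076 and 2746 in AS_sal (AS_sal_8, AS_sal_14 and AS_sal_40) and 2742 and 531 in AS_dex (AS_dex_38 and AS_dex_42). Groups are listed in this order of animals throughout. The ranges of saline and DEX libraries overlapped in every phenotype, and the highest library held 14.3 times the count of the lowest. Per kilobase of exon, Foxj1 was the second most abundant member, at 627 normalized counts on average, after Cfap36 at 1137.

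The dynein heavy chains, the motors, had the widest swings. Dnah12, of the inner arms, fell to 13.0 normalized counts in PS_dex_6 and reached 2965 in PS_dex_64, a 227-fold difference within 1 group. Dnah3 went from 7.61 to 1808 (238-fold) and Dnah6 from 28.2 to 4070.1 (144-fold) between the same animals. The value of Dnah3 in PS_dex_6 rests on 7 reads and that of Dnah12 on 12. Of the outer arm motors, Dnah5 ranged from 159 to 1958 (12.3-fold) and Dnah9 from 399 to 2538 (6.36-fold), again between PS_dex_6 and PS_dex_64. Dnah1 was the steadiest chain that followed the gauge (r = 0.874), with a 1.82-fold range around a mean of 2614. The outer arm intermediate chains, listed under their older symbols Dnaic1 and Dnaic2, correlated with the other members at 0.989 and 0.987 over ranges of 7.04-fold and 7.78-fold.

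Of the regulatory complex, Drc3 followed the other members at 0.990, Drc7 at 0.985 and the scaffold Drc1 at 0.865. Drc1 was also the least variable of them, with a 2.87-fold range, while Drc7 ranged 48.3-fold. Of the radial spokes, Rsph1 (0.972, 9.71-fold) and Rsph10b (0.967, 8.05-fold) followed closely. Rsph4a, a head protein of the spoke, ranged 19.8-fold but had its lowest value, 100.5, in con_sal_114 and not in the libraries with the lowest gauge. The 4 central apparatus genes followed the others at 0.990 (Spag16 and Spef2), 0.943 (Spef1) and 0.935 (Spag6l). Among Cfap genes, Cfap70, a protein of the outer arm, had the highest correlation of all members (0.991, 64.1 to 895), and Cfap43, linked to the inner arms, ranged from 17.4 to 2378 (137-fold). Cfap73 went from 1.09, a single read, in PS_dex_6 to 316 in PS_dex_64. Cfap44 ranged from 285 to 4447 and Cfap126 from 41.3 to 784.

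**Figure D2:**
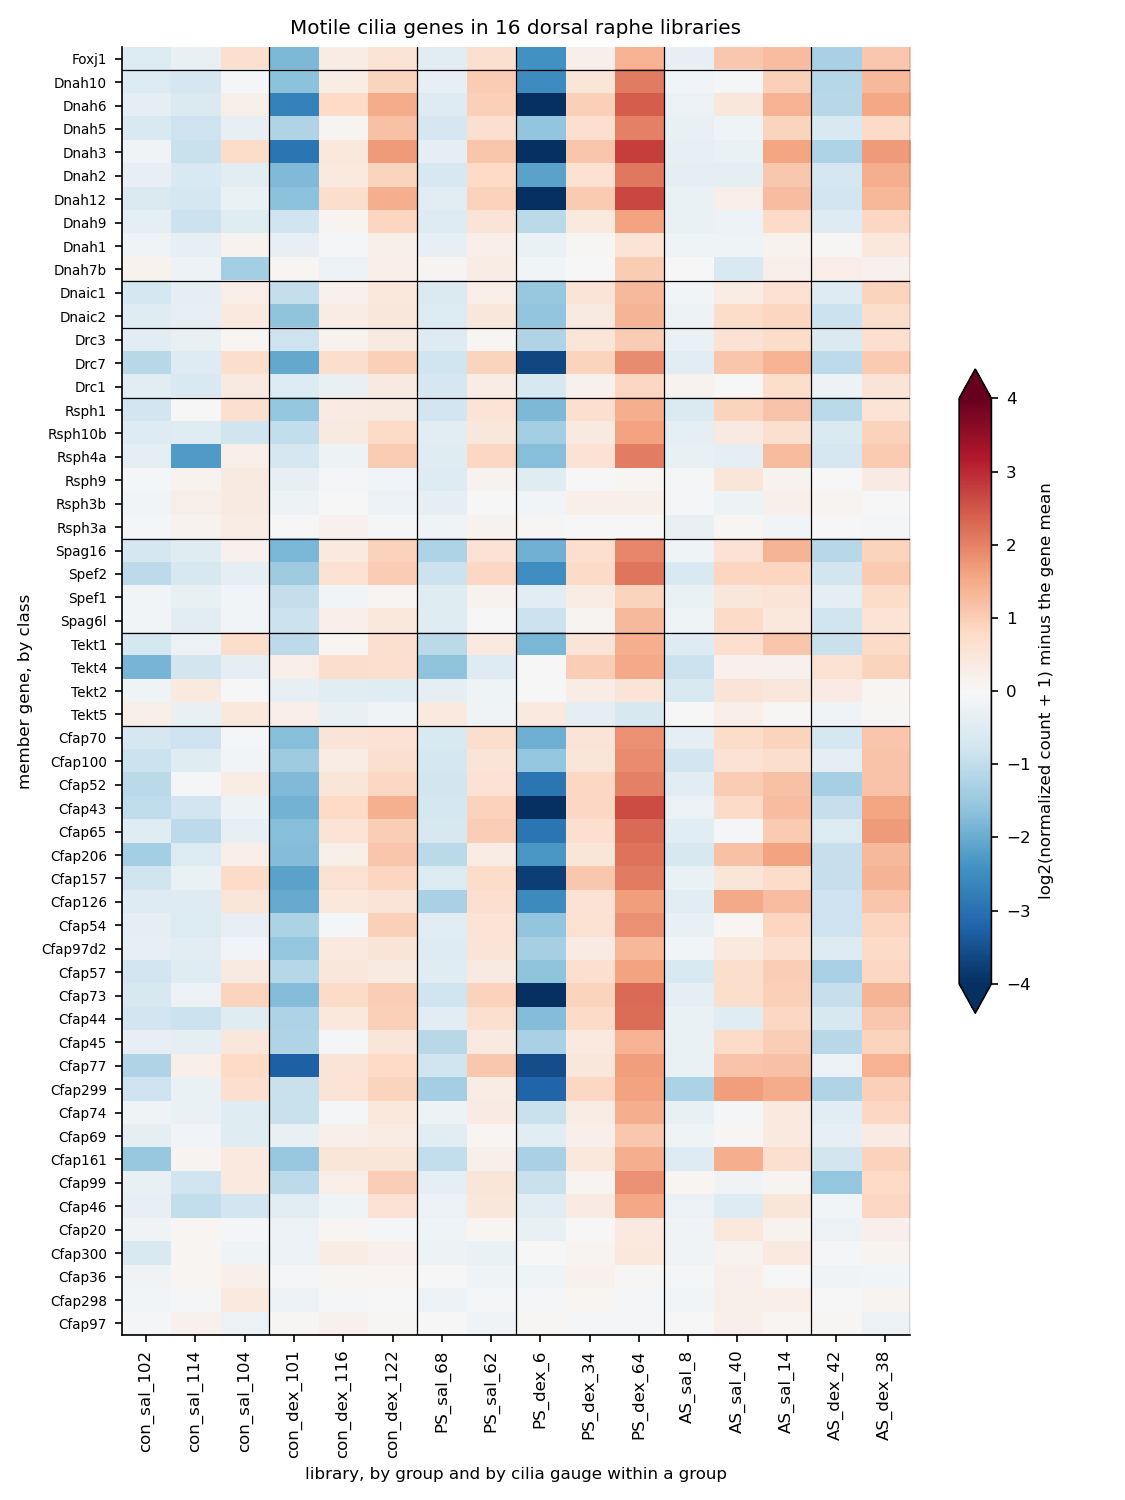
Each row is a member gene, ordered by class and by its correlation with the other members, and each column a library; color gives log2(normalized count + 1) minus the mean of the gene, from blue (low) to red (high), cut at 4 either way. Columns PS_dex_6 and con_dex_101 are blue in most rows and PS_dex_64 red, while rows such as Cfap36, Cfap97 and Rsph3a stay pale throughout.

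A minority of the members did not take part. The 8 with the lowest correlation were Cfap36 (0.510), Rsph3b (0.494), Cfap298 (0.475), Tekt2 (0.380), Dnah7b (0.234), Rsph3a (0.186), Cfap97 (-0.393) and Tekt5 (-0.643). Cfap36, which takes part in transport into primary cilia, was the most abundant member per length and ranged only from 2762 to 3557 (1.29-fold); Cfap97 ranged from 1709 to 2347. Rsph3a and Rsph3b are near copies of each other and Dnah7b has close relatives, so the sharing of reads among them by the counting is uncertain. Tekt5, a tektin known from sperm flagella, ran against the gauge: it had 951 normalized counts in PS_dex_6 and 465 in PS_dex_64. In all, 44 members had their highest value in PS_dex_64 and 34 their lowest in PS_dex_6.

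Long and short transcripts of the program did not move in full step. Among the 45 members with a correlation of at least 0.8, 9 have a longest transcript of 9000 bases or more, mostly dynein heavy chains, and 22 one under 3000 bases. In AS_sal_40 the mean log2 deviation was -0.06 for the long and 0.77 for the short members, and in con_sal_104 it was -0.09 and 0.36. In PS_dex_6, where the members were lowest, it was -2.65 and -2.04. The long members lay above the short in con_dex_122 (1.07 against 0.61) and PS_dex_64 (2.01 against 1.51). Over all 55 members the slope of the deviation on log2 length was -0.26 in AS_sal_40 and 0.26 in PS_dex_64, the lowest and the highest of the 16 libraries, whereas the same slope over all annotated genes ran from -0.05 to 0.05. The split was chosen after the values were seen and was not tested.

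**Figure D3:**
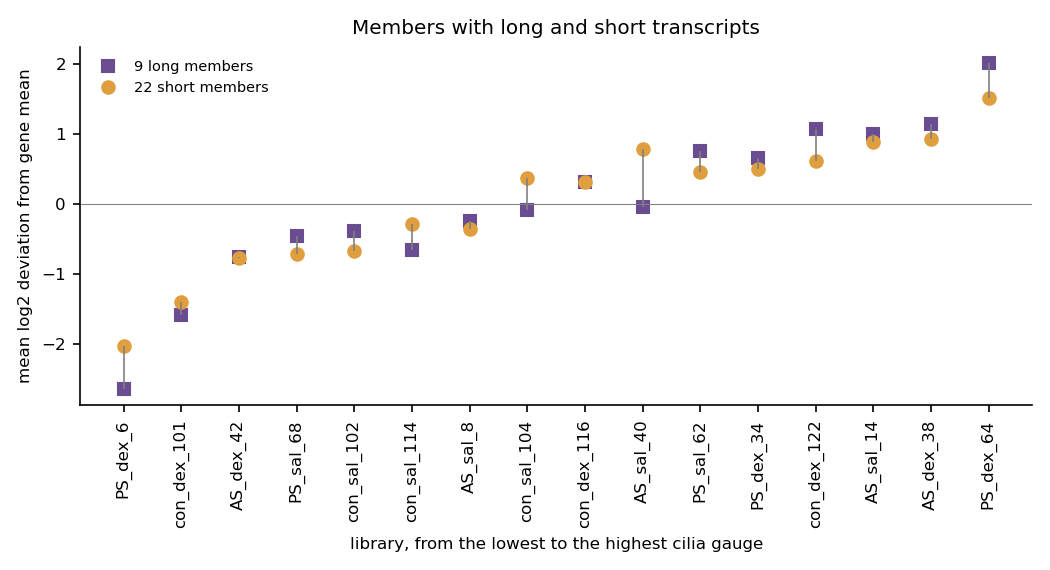
Mean log2 deviation of the 9 long (purple squares) and 22 short (orange circles) members in each library, ordered by the cilia gauge; gray lines join the pair. The pair is farthest apart in AS_sal_40, where the short members stand at 0.77 and the long at -0.06.

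Genes outside the rule moved with the gauge in the same way. Of 14449 non-members, 266 (1.84%) correlated with it at 0.9 or more after group centering, while the median non-member stood at -0.02. The most alike among genes with a mean of at least 50 were Tsku (0.996), Cdhr3 (0.994), Ttc16 (0.994), Iqca (0.993), Ttc21a (0.992), Dnaaf3 (0.992), Frmpd2 (0.992), Ccdc162 (0.992), Plekha2 (0.991) and Vwa3a (0.990). Dnaaf3 assembles dynein arms, and Tsku encodes a secreted proteoglycan. The most opposed were Mapk9 (-0.931), Slc39a10 (-0.929), Stk24 (-0.925), Brinp1 (-0.919) and Ephb1 (-0.907).

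Lists of other genes were set against the gauge. The ependymal list itself holds genes of motile cilia, such as Hydin, which is also in the axoneme list. Its correlation with the gauge therefore does not by itself name a tissue. Of 45 measured ependymal genes outside the rule, 42 correlated with the gauge at 0.8 or more. Their mean followed the gauge over the 16 libraries at a Pearson r of 0.989 and a Spearman rho of 0.976, and at r = 0.979 without the 2 libraries farthest from the median gauge. Of the other axoneme and assembly genes, 17 of 28 reached 0.8. Of 11 measured regulators of multiciliation, Rfx2, Trp73 and Ccdc78 reached it, while Ccno, Mcidas, Gmnc, Deup1 and Myb, which act while the cilia form, are not among the listed genes. Only 10 of 50 genes of the primary cilium and its transport did so, with a median r of 0.37.

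On the same measure, the r of the list mean with the gauge over the 16 libraries, regulators of multiciliation stood at 0.976, genes of the primary cilium at 0.778, choroid plexus genes at 0.768 and astrocyte genes at 0.750. Their rho was 0.971, 0.815, 0.712 and 0.732, and r without the 2 farthest libraries was 0.953, 0.776, 0.674 and 0.762. The levels of these lists thus also moved with the gauge, and their part in the results was not tested. Gene by gene, the median r with the gauge was 0.38 over 15 astrocyte genes (3 at 0.8 or more, Gfap, Mlc1 and Sox9), 0.35 over 4 tanycyte genes, 0.17 over 10 choroid plexus genes (4 at 0.8 or more, Calml4, Clic6, Folr1 and Msx1), 0.35 over 12 serotonin neuron genes and 0.20 over 10 microglia genes. It was -0.43 over 10 oligodendrocyte genes, -0.40 over 13 genes of vessels and meninges and -0.16 over 11 genes of GABA and glutamate neurons. Ttr, the transthyretin gene and the defining choroid plexus marker, had 0 to 101.6 normalized counts and a correlation of 0.22 with the gauge, and 10 of the 20 choroid plexus genes are not listed. Tph2, the rate-limiting enzyme of serotonin synthesis, had 91764 to 182191 normalized counts, with a correlation of 0.38. The study had left out DRN libraries with outlying low Tph2, all from stressed mice given DEX. The range of Tph2 in the libraries kept is therefore not free of that selection, and neither are the gauges of PS_dex and AS_dex. Its part in the gauge was not tested. After that step the text of the study still counts more DRN libraries than the 16 used here, without a reason for the difference.

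By calls of single genes, no shift of the whole program with DEX was detected. The study used another measure, enrichment of gene sets over ranked genes, and reported cilium sets as higher with DEX in con and PS. That test was not repeated here. Members were tested with limma over all 14504 genes, with calls at an adjusted p below 0.1. None of the 55 was called in con, PS or AS, where 1.26%, 0.703% and 0.689% of all genes were called; at an unadjusted p under 0.05, which 12.1%, 4.69% and 9.36% of all genes passed, Tekt4 alone passed in con and in PS and no member in AS. DESeq2 called 1 member, Tekt4, in con and in PS, where it called 3.01% and 1.29% of all genes. With edgeR, which called 1.24% and 0.696% of all genes there, no member was called. The median log2 difference of the members was 0.16 in con (36 of 55 above 0), 0.17 in PS (43 above 0) and -0.15 in AS (13 above 0), against less than 0.01 in size over all genes. Averaged over the phenotypes it was 0.03, with 31 of 55 above 0. The median SE of a member was 0.73 in con and 0.82 in PS and AS, against 0.17 and 0.19 over all genes. Tekt4 went uncalled in con and PS at over 3 times its SE, so changes larger than these SEs could also be missed. Without PS_dex_6 the median in PS was 1.06, and without PS_dex_64 it was -0.44.

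Averaged over the 3 phenotypes, 4.31% of all genes were called for DEX, 2.78% as higher and 1.53% as lower, and 1 member, Tekt4, was among them as higher. At an unadjusted p under 0.05, which 14% of all genes passed, Tekt4 was again the only member. Tekt4 (chr17:25454615-25476602, plus strand, GRCm38) encodes a tektin, a filament protein of the doublet microtubules. It had 53.5, 153 and 118 normalized counts in con_sal against 236, 325 and 317 in con_dex. It had 137 and 64.9 in PS_sal against 194, 391 and 573 in PS_dex, and 108, 225 and 221 in AS_sal against 371 and 302 in AS_dex. The DEX libraries lay above the saline libraries in each phenotype, without overlap. Across phenotypes only PS_dex_6, with 194, fell below the 2 highest saline libraries. Such separation toward higher values was shown by 8.51% of all genes in con, 11.2% in PS and 15.1% in AS, and separation toward lower values by 7.43%, 10.1% and 14.8%. In PS 0.579% of all genes were called higher.

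The average log2 difference of Tekt4 was 1.45 (SE 0.28, adjusted p = 0.00896, limma). It was 1.54 (SE 0.45, adjusted p = 0.186) in con, 1.89 (SE 0.51, adjusted p = 0.228) in PS and 0.93 (SE 0.51, adjusted p = 0.555) in AS. The call on the average held under all 27 alternatives, with an adjusted p of at most 0.0503. None of the 3 interactions was called for any member (0% of all genes). At an unadjusted p under 0.05, Rsph3b and Tekt2 passed in PS against con (2.1% of all genes), and none in AS against con (4.02%) or AS against PS (2.9%). The annotation has no other gene over the exons of Tekt4. Of the other tektins, Tekt2 was lower with DEX in con (107, 121 and 159 against 95.3, 89.5 and 85.7) and higher in PS (108 and 92.99 against 121, 149 and 174). These groups did not overlap either, but neither difference was called (-0.49, SE 0.28, adjusted p = 0.499, and 0.54, SE 0.31, adjusted p = 0.9999; limma). The difference between them was 1.03 (SE 0.42, adjusted p = 0.9996, limma). Tekt1 differed by -0.03 (SE 0.48, adjusted p = 0.981, limma) on average, and Tekt5 by values that were not called in any comparison.

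**Figure D4:**
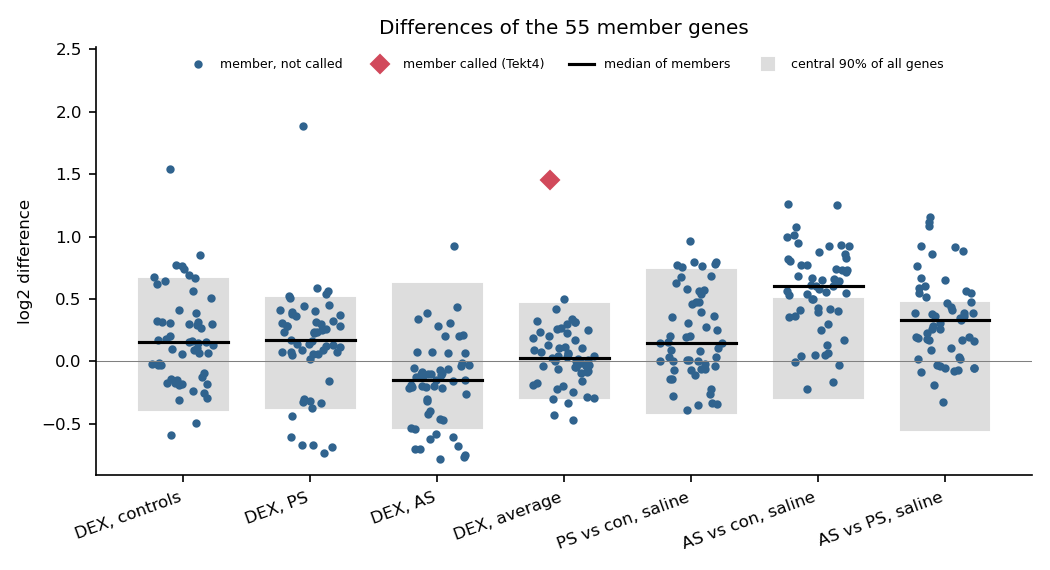
Log2 difference of each member in the 7 comparisons (dots), with the median of the members (black line) and the range from the 5th to the 95th percentile of all genes (gray bar). The red diamond is Tekt4, at 1.45 for DEX averaged over the phenotypes, the only called member; the members stand mostly above 0 in active against control mice under saline, with a median of 0.60.

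The shared level was then taken out. Each member was fitted again with the mean of the other 54 as a covariate, a step chosen after the data were seen, which brought the median SE of a member for the average DEX effect from 0.46 to 0.13. With it 2 of the 55 members were called for DEX on average, Tekt4 and Foxj1, where 4.79% of all genes were called in the fit of Foxj1 and 4.83% in that of Tekt4. Tekt4 was higher by 1.44 (SE 0.19, adjusted p = 0.000414, limma), and was now also called in con (1.46, SE 0.30, adjusted p = 0.0384) and PS (1.83, SE 0.34, adjusted p = 0.0238). Foxj1 was lower by 0.55 relative to the other members (log2 difference -0.55, SE 0.10, adjusted p = 0.00783, limma). Without the covariate its difference was -0.47 (SE 0.56, adjusted p = 0.711).

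Libraries of like gauge show what this means in counts. At a gauge of -0.59, AS_dex_42 had 531 normalized counts of Foxj1 and 302 of Tekt4, whereas PS_sal_68, at -0.56, had 964 and 64.9, and con_sal_102, at -0.52, had 903 and 53.5. At the upper end the gap was narrower: AS_dex_38 (0.81) had 2742 of Foxj1 and AS_sal_14 (0.75) had 3076, with 371 and 225 of Tekt4. For each 100 counts of Foxj1 there were 5.93 to 11.0 counts of Tekt4 in the 8 saline libraries and 13.5 to 80.6 in the 8 DEX libraries, without overlap. Both genes were picked because the fit on these same libraries called them in opposite directions. Their ratio is therefore a description and adds no evidence.

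The difference of Foxj1 relative to the other members was -0.52 in con, -0.56 in PS and -0.57 in AS (SE 0.17, 0.19 and 0.19), and none of these passed alone (adjusted p = 0.216, 0.475 and 0.323, limma). The log2 deviation of Foxj1 minus that of the other members was between -0.01 and 0.69 in the saline libraries and between -0.77 and 0.26 in the DEX libraries. The ranges overlapped. The values under -0.6 belonged to PS_dex_6, AS_dex_42 and con_dex_101, the 3 libraries with the lowest gauge, and the highest to AS_sal_40 and con_sal_104, where short transcripts stood high. With only the 29 other members whose longest transcript is under 3000 bases as covariate, the difference was -0.49 (SE 0.09, adjusted p = 0.0041, limma). With the 45 ependymal genes outside the rule it was -0.38 (SE 0.09, adjusted p = 0.033, limma). Without PS_dex_6 and PS_dex_64 it was -0.59. With each library left out in turn it ranged from -0.64 (without AS_dex_38) to -0.45 (without AS_dex_42, among the 3 libraries of lowest gauge). The parts of transcript length and of a low gauge in this result were not tested further.

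**Figure D5:**
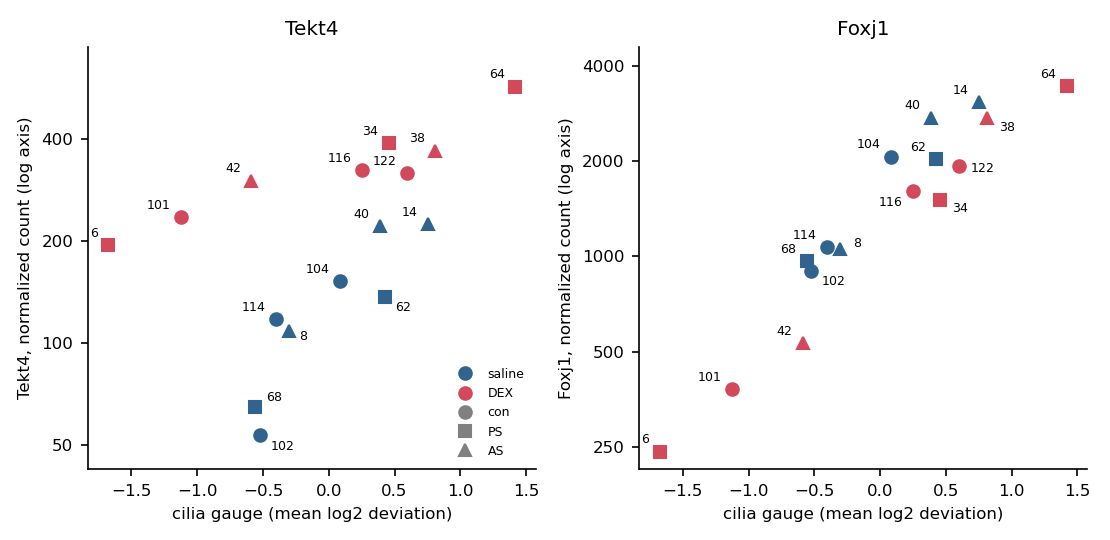
Normalized counts of Tekt4 (left) and Foxj1 (right), on log axes, against the cilia gauge of the 16 libraries; blue is saline, red is DEX, circles are control, squares PS and triangles AS mice, with animal numbers. Red points of Tekt4 lie above blue points of a like gauge wherever both occur; those of Foxj1 lie below, most clearly AS_dex_42 (531) beside PS_sal_68 (964) and con_sal_102 (903).

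Under saline, the members were mostly higher in stressed mice of the active phenotype than in controls, but the difference did not exceed the spread between animals. The median log2 difference was 0.60, and 51 of 55 members (92.7%) were above 0, against 53.9% of all genes. By limma, no member was called, nor was any gene (0% of 14504), and none of the 55 had an unadjusted p under 0.05, against 2.39% of all genes. With edgeR and DESeq2, which called 0% and 0.0758% of all genes, no member was called either. Cfap44, Cfap54, Cfap97d2, Dnah5, Dnah9 and Rsph10b had all 3 AS libraries above the 3 controls, 6 of 55 members, where 2.38% of all genes did so and 2.11% lay lower without overlap. Dnah9, for example, had 699, 1414 and 717 normalized counts against 638, 601 and 460.1 (0.67, SE 0.59, adjusted p = 0.998, limma). The members share most of their variation and are not 55 separate observations: the gauge was -0.30, 0.75 and 0.39 in AS_sal against -0.52, 0.08 and -0.40 in con_sal, and these ranges overlap. By its enrichment of ranked genes, which was not repeated here, the study reported cilium sets as higher in AS against con under saline. The 10 members that it names from these libraries (Dnah5, Dnah9, Drc1, Drc3, Rsph1, Rsph4a, Tekt1, Tekt2, Cfap43 and Cfap44) are no independent evidence. Their differences ran from 0.05 for Tekt2 to 1.25 for Cfap43.

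With the mean of the other members as covariate, no member was called in AS against con, and the smallest unadjusted p was that of Dnah3 (-0.95, SE 0.43, adjusted p = 0.999, limma). No member was called in passive mice against controls either: the median was 0.15, with 38 of 55 above 0, 0% of genes called and no member under an unadjusted p of 0.05, against 7.67% of all genes (limma). Cfap44, Cfap46 and Rsph10b lay above the controls without overlap, against 14.3% of all genes, with 14.2% below. Active against passive mice gave a median of 0.33 and no call in 55 members (0% of all genes), and no member passed an unadjusted p of 0.05 (3.41% of all genes; limma). Cfap97 and Cfap300 lay higher without overlap, against 11% of all genes, with 12.7% below. The ependymal genes outside the rule had a median of 0.80 in AS against con, and none of 45 was called.

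The gauge served last as a covariate for the rest of the genes, to ask how many of the DEX and stress calls change when the common level of the members is held fixed. Most calls were kept. Of 14449 non-members, 183 were called for DEX in con without and 209 with the gauge, with 176 in common (1.27% and 1.45%). In PS 0.706% were called without and 0.844% with it, with 0 calls lost and 20 gained. The counts were 100 and 132 in AS with 98 kept (0.692% and 0.914%), and on average 624 and 695 with 598 kept (4.32% and 4.81%). The counts with the gauge rest on few animals: without con_dex_122 the count in con was 90, without PS_sal_68 that in PS was 40, and without AS_dex_42 that in AS was 9 and the average 366. Fkbp5, the glucocorticoid receptor co-chaperone and a standard DEX target, was higher by 2.15 on average with and without it. No non-member was called in any of the 3 comparisons among saline groups in either fit (limma).

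The 26 calls lost on the average lay near the threshold. The strongest of them, Ccar1, kept its difference of 0.18 while its adjusted p went from 0.0819 to 0.104, and Kdm4a, Ilvbl, Ppp2r5a and Pbx2 behaved alike. In con the 7 lost calls included Itprid2, Pnpla7, Rhou, Mat2a and Ocrl, and in AS both lost were Slc7a5 and Ddit4, none with an adjusted p over 0.12. Calls gained included Txnip (0.81 without, 0.78 with the gauge; adjusted p from 0.215 to 0.000926), Bbox1, Hhatl and Clic6 on average, and Mt1, a metallothionein, in con, PS and AS. Their correlation with the gauge was 0.941 for Txnip, 0.924 for Clic6 and 0.898 for Mt1.

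Of the 45 ependymal genes outside the rule, 1 was called for DEX on average, where 4.31% of all genes were. It was Crocc (0.93, SE 0.23, adjusted p = 0.0464, limma), the gene of rootletin, which anchors cilia at their base. Its correlation with the gauge was only 0.22, and with the gauge its difference was the same (0.93, adjusted p = 0.0448). With the gauge Kif27 (0.45, adjusted p = 0.0514), Ttll9 (0.40, adjusted p = 0.0209) and Fhad1 (0.36, adjusted p = 0.0709) were also called, all higher with DEX, so that 4 of 45 were called where 4.81% of non-members were. Of the 28 further axoneme genes 0 were called in either limma fit, and of the 11 multiciliation regulators 0 without and 1, Rfx4, with the gauge. Counts this small are near those backgrounds and are no result about the lists.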

How the data were processed

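Poly(A) RNA of the DRN was sequenced in 16 libraries of 6 groups, assigned from the sample labels. The authors trimmed reads with fastp 0.20.1, aligned them to GRCm38 (mm10) with HISAT2 2.2.1, counted them with featureCounts (Subread 2.0) and deposited counts divided by DESeq2 1.36.0 size factors, a signal per gene that is comparable between libraries. The libraries were strand-specific, but whether counting used strand is not given in the sources used here. The exons of 23 of the 55 members overlap another annotated gene, so their reads could be shared. Of these, only Cfap43, Cfap299, Rsph10b and Spef1 overlap a gene on the same strand. Overlaps and gene positions were read from another release of the annotation than the study counted with. The authors' own fold changes and p-values were not used.

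All deposited values were whole reads (within 0.01) once the size factors were recovered, in 100% of values. The members and gene lists were chosen with earlier results of these data known. Genes were tested with limma 3.58.1 on log2(normalized count + 1) with 6 group means, an intensity trend and 10 residual degrees of freedom, in R 4.3.3; p-values were adjusted by Benjamini and Hochberg over 14504 genes and called under 0.1. A fold change on this scale is understated for low genes. edgeR 4.0.16 and DESeq2 1.42.0 on the recovered reads were alternatives, and the fits were tested on simulated data. Named genes were a fixed set with a member of each class, all members called, the members most and least like the others, the non-members most like the gauge, and up to 5 calls lost or gained with it per comparison. No pair of libraries in a group agreed within sampling noise (lowest chi-square per degree of freedom 23.0). Labels give an animal number for each library but not a litter or batch, so p-values measure the spread between these libraries. Depth differed less than 2-fold, and 5 members had under 10 reads in a library.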

Additional observations from a re-analysis of the deposited data

How the results depend on the processing

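No call of a member was lost and no called member changed direction under the alternatives, which were other pseudocounts, filters, scalings, tools, library weights, gauges, the compared groups alone and each library left out in turn. Members called for DEX in con went from 0 to 1 with DESeq2 and with the mean of the other members as covariate, and in PS from 0 to 1 with library weights, DESeq2, without PS_dex_6 and with that covariate; on average they went from 1 to 2 with it. In each case in con and PS the member was Tekt4: in con its log2 difference was 1.44 (adjusted p = 0.0426) with DESeq2 and 1.46 (adjusted p = 0.0384) with the covariate; in PS it was 1.96 (adjusted p = 0.0121) with limma's library weights, 1.93 (adjusted p = 0.0078) with DESeq2, 2.31 (adjusted p = 0.0753) without PS_dex_6 and 1.83 (adjusted p = 0.0238) with the covariate. Over all genes, DESeq2 called 3.01% in con and 1.29% in PS. The cause of these changes in calls was not tested. The covariate and the fits without PS_dex_6 and PS_dex_64 were chosen after the data were seen.

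The median log2 difference of the members, which carries no test, changed sign in most comparisons. Over the alternatives it ranged from -0.15 to 0.74 for DEX in con, -0.44 to 1.06 in PS, -0.89 to 0.50 in AS and -0.17 to 0.34 on average. Under saline it ranged from -0.25 to 0.73 in PS against con, -0.06 to 0.83 in AS against PS and 0.03 to 1.09 in AS against con, which alone kept its sign.

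With 1 library left out, members called for DEX ranged from 0 to 1 in PS. Genes called with the gauge as covariate ranged from 90 (without con_dex_122) to 356 (without con_sal_102) in con, where they were also 95 without con_dex_101, 113 without con_sal_104 and 353 without AS_sal_40. They ranged from 40 (without PS_sal_68) to 152 in PS, with 50, 56, 66 and 77 without PS_sal_62, PS_dex_64, PS_dex_34 and PS_dex_6. They ranged from 9 (without AS_dex_42) to 153 in AS, with 53, 73 and 83 without AS_dex_38, AS_sal_14 and AS_sal_40, and from 366 (without AS_dex_42; 454 without PS_sal_68) to 797 on average. Under saline they ranged from 0 to 31 in PS against con (31 without con_sal_102, 7 without PS_sal_62), from 0 to 24 in AS against con (24 without con_sal_102) and from 0 to 1 in AS against PS (1 without PS_sal_62). The log2 difference of Tekt4 ranged from 1.35 to 2.42 in PS and from 1.10 to 1.85 in con. No paired analysis was possible because replicate numbers are animal numbers and no number occurs in more than 1 group.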
